A study of Mus musculus with 4 samples.

Results

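The 8 genes described here encode the muscle acetylcholine receptor and the proteins that gather it at the neuromuscular synapse. Chrna1, Chrnb1, Chrnd, Chrng and Chrne encode the alpha, beta, delta, gamma and epsilon subunits, Musk a receptor kinase, Dok7 its cytoplasmic activator, and Rapsn the scaffold rapsyn, which clusters receptors. They were chosen by symbol, among 7235 genes that the deposited peak lists name, and a gene with no row was counted as having no peak. Of the 8 genes, 7 had rows in both lists, and Chrne had none in either. Of the named genes, 55.1% likewise had rows in both, 9.95% in the list labelled with pyruvate alone and 35% in the other alone. Over RefSeq protein-coding genes, which include genes without a row, these shares were 15.2%, 2.62% and 9.27%. The files give the genes as ENSMUSG00000027107 (Chrna1), ENSMUSG00000041189 (Chrnb1), ENSMUSG00000026251 (Chrnd), ENSMUSG00000026253 (Chrng), ENSMUSG00000057280 (Musk), ENSMUSG00000002104 (Rapsn) and ENSMUSG00000044716 (Dok7).

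MyoD, a bHLH transcription factor of the muscle lineage, was mapped by ChIP-seq in myotubes grown from primary myoblasts of C57BL/6 mice aged 2 weeks. After 5 days of differentiation, the myotubes spent 24 hours in differentiation medium either with pyruvate or without it. Each condition had 1 MyoD library, immunoprecipitated with the antibody SC-760, and 1 input library, which was not analysed here. No genotype other than the strain is given for any group. There were 11907 peaks in the deposited list whose sample title says with pyruvate and 19338 in the one whose title says without, here the with-pyruvate and without-pyruvate lists. Only the titles tie each list to its condition, and an abbreviation in the deposit could be read the other way, so every direction below rests on the titles. With 1 library per condition, no difference between them has a replicate check, and no test was made. Read depth is unknown, so a site absent from either list may only have fallen under that library's detection limit. Of 10 myotube marker genes (such as Myog, Des and Ttn), both lists placed a peak near the promoter of 4, and the with-pyruvate list alone did so for 4. For 5 fibroblast genes the count in both was 0, and in the without-pyruvate list alone it was 2. It was 1 each, in both lists, for 6 Schwann cell, 5 motor neuron and 4 macrophage genes. Some of these marker genes had no row: those with a row were 9 myotube, 3 fibroblast, 2 Schwann cell, 1 motor neuron and 2 macrophage genes. The shares over all named genes were 18.7% for both lists, 6.01% for the with-pyruvate list alone and 17.7% for the without-pyruvate list alone. Over RefSeq protein-coding genes, where genes without a row also count, they were 4.51%, 1.43% and 4.13%. These peaks show binding near a gene and not its expression.

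As background, the muscle receptor is a pentamer opened by acetylcholine from the motor nerve. The gamma subunit belongs to the fetal receptor and is replaced after birth by epsilon, which is made mainly by nuclei under the synapse. The nerve's agrin acts through Lrp4 on MuSK, Dok-7 is recruited to MuSK, and rapsyn then holds receptors in dense clusters. MyoD and its relatives bind E-boxes, short motifs with the letters CANNTG, and E-boxes are known control elements of receptor subunit genes. The N-box, CCGGAA, is another known element of synaptic gene promoters and is bound by the Ets factor GABP.

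The sequences show which E-boxes lie before the start of the genes with a peak there and of Chrne, which had none. They come from RefSeq (GRCm38.p6), whose promoter table held 6 of the 8 genes: Chrna1, Chrnb1, Chrne, Chrng, Musk and Dok7. Each runs 5′ to 3′ on the gene's strand over the 250 bases before the start, and capitals mark every CANNTG on either strand and every CCGGAA or TTCCGG.
Chrna1 (chr2:73580339-73580588, minus strand): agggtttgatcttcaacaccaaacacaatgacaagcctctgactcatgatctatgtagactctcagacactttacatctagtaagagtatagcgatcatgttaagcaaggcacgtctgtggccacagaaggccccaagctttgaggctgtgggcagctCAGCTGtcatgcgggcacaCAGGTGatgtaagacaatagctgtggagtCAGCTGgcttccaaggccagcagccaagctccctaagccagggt
Chrnb1 (chr11:69795938-69796187, minus strand): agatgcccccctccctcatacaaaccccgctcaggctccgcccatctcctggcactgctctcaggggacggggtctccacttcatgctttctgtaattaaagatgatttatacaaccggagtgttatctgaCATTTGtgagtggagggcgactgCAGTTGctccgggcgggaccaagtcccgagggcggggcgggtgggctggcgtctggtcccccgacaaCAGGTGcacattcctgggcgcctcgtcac
Chrng (chr1:87205561-87205810, plus strand): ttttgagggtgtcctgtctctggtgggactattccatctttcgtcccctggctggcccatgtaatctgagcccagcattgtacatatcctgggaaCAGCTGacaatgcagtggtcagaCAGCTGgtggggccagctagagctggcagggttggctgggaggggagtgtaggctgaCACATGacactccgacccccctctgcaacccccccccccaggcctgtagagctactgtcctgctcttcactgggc
Musk (chr4:58285712-58285961, plus strand): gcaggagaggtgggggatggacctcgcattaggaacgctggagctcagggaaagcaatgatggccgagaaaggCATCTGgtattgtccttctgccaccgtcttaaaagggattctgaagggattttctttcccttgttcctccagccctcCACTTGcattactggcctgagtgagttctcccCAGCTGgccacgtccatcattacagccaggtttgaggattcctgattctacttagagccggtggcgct
Chrne (chr11:70619195-70619444, minus strand): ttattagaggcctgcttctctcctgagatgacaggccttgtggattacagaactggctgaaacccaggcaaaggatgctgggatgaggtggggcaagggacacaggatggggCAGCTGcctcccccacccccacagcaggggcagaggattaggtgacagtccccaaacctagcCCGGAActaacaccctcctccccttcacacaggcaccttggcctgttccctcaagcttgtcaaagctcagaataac
The bases under the peaks themselves were not read, for want of an mm9 genome, and a RefSeq start may differ from the start in the deposited files.

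Each of these 5 genes except Chrne had 3 E-boxes in the window, and Chrne had 1. At Chrna1 they were CAGCTG at 92 to 87 bases before the start, CAGGTG at 73 to 68 and CAGCTG at 44 to 39. Chrng also had a pair of CAGCTG, at 155 to 150 and 132 to 127 bases, and CACATG at 75 to 70. Musk had CATCTG at 177 to 172 bases, CACTTG at 100 to 95 and CAGCTG at 68 to 63. At Chrnb1 the letters were CATTTG (119 to 114 bases), CAGTTG (96 to 91) and CAGGTG (29 to 24), with no CAGCTG. In Chrne a CAGCTG lay at 138 to 133 bases and an N-box at 76 to 71, and the N-box was found in no other of the windows searched here. Dok7 has 2 starts in the table: 1 window held a single E-box (CAGATG, 149 to 144 bases before) and the other held none.

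Among all 32851 starts in the table, 12.2% held 3 or more CANNTG, 13.0% held CAGCTG at least once and 1.26% at least 2 times (both strands read, CAGCTG being counted within CANNTG too). Windows with CAGGTG or its complement CACCTG made up 17.2%, and those with CCGGAA or TTCCGG 12.0%. Of the 922 starts whose genes both lists mark with a promoter-proximal peak, 23.8% held CAGCTG, against 12.5% of the 30778 starts of genes with no such peak. For CANNTG of any kind the shares were 66.3% and 66.4%, and for CAGGTG or CACCTG they were 18.4% and 17.1%. For CCGGAA or TTCCGG, which is not an E-box, they were 17.1% and 11.6%. A higher share at the starts marked in both lists was thus not particular to CAGCTG. A match is a description of the letters and does not show that MyoD was bound there.

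**Figure D1:**
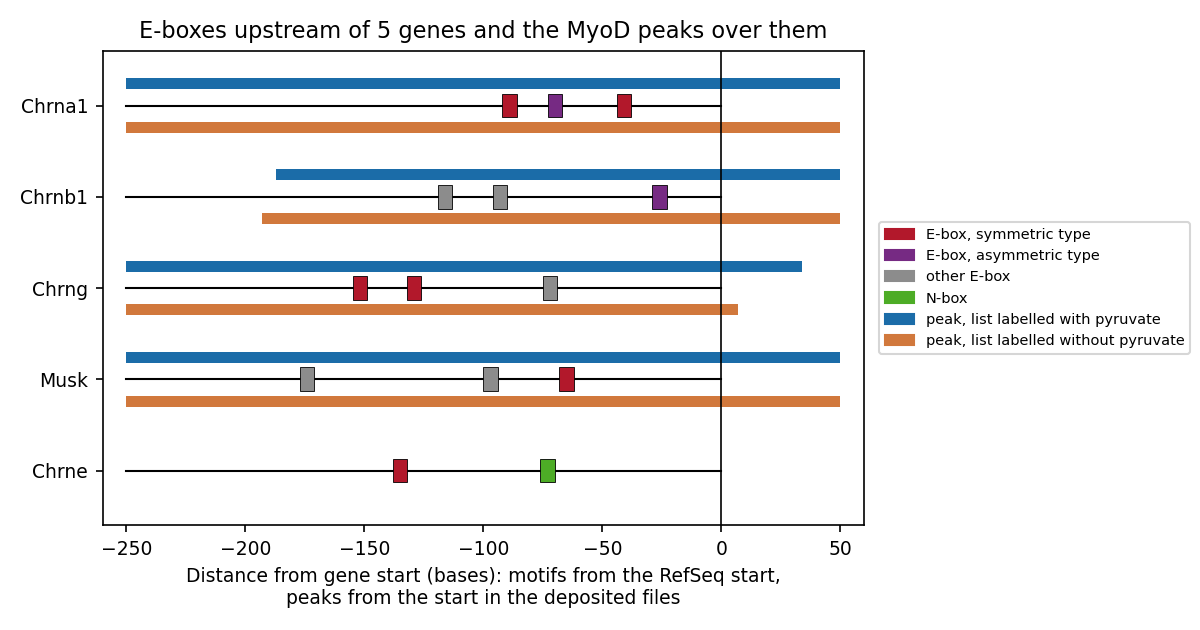
Positions of E-boxes and N-boxes in the 250 bases before the RefSeq start of 5 genes (boxes; symmetric type is CAGCTG, asymmetric type is CAGGTG or CACCTG), with the MyoD peaks of each list drawn above and below from the start in the deposited files and clipped at the window's edge and 50 bases past the start. For Chrnb1 and Chrng the listed flank is taken as upstream; Chrne has 1 E-box, 1 N-box and no peak, and each of the other 4 genes has 3 E-boxes under peaks of both lists if the 2 kinds of start coincide.

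MyoD peaks were promoter-proximal at each of the 7 genes with rows, in both lists. Promoter-proximal means within 2 kb of the start, or in a 2-kb flank of the gene where the files list only a flank and do not show its side. Among the genes the files name, the share with such a peak in both lists was 18.7%, in the with-pyruvate list alone 6.01%, and in the without-pyruvate list alone 17.7%. Over RefSeq protein-coding genes the shares were 4.51%, 1.43% and 4.13%. None of the 8 genes was promoter-proximal to a peak in 1 list alone. With only those genes whose start the files locate, the count was 3 (Chrna1, Musk and Dok7).

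**Figure D2:**
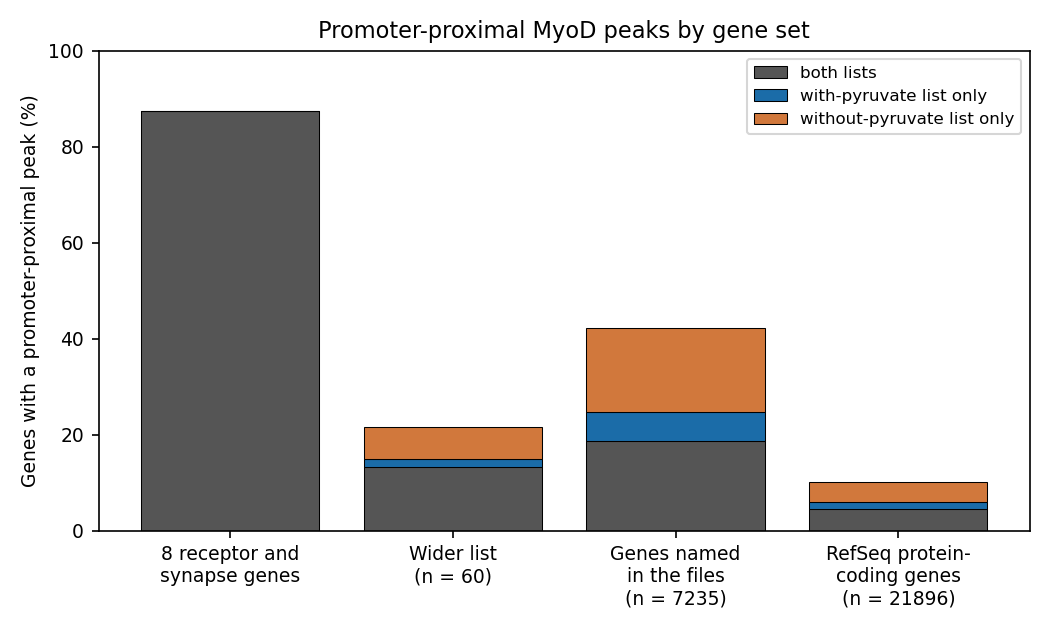
Percentage of genes with a promoter-proximal MyoD peak in both lists, only in the with-pyruvate list or only in the without-pyruvate list (stacked bars), for the 8 receptor and synapse genes, a wider neuromuscular list of 60 genes, all genes named in the files and RefSeq protein-coding genes. The 8 genes stand at 87.5% for both lists with nothing in 1 list alone, beside 4.51% of RefSeq protein-coding genes, which also include genes without a row.

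For Chrnb1, Chrnd, Chrng and Rapsn, the files list a flank and no gene body. In each of them, in both lists, a peak spanned the end of that flank where the gene would start if the flank were upstream. Where the files do show the side, a peak across that end belonged to an upstream flank in 182 of 197 cases in the with-pyruvate list (92.4%) and in 169 of 186 in the without-pyruvate list (90.9%). At Chrnb1 the gene order also places the flank upstream, because RefSeq has Chrnb1 and Fgf11 as separate neighbours with Chrnb1 first, and the Fgf11 body is listed above that flank's lower end. For Chrnd, Chrng and Rapsn the side was not settled. Distances below take these flanks as upstream. All positions are those of the deposited files, in mm9, and the files do not show exons, introns or UTRs.

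Chrna1 was the subunit gene with the most peak sequence. Its body (chr2:73401272-73418395, minus strand, 17.1 kb) and flank held 3 peaks in the with-pyruvate list and 2 in the without-pyruvate list, summing to 2049 and 1002 bases. Of named genes, 11.9% had at least 3 peaks in the with-pyruvate list, and 34.1% had at least 2 in the other. The peak over the start, at chr2:73418286-73419080, was 794 bases wide with pyruvate and reached from 685 bases before the start to 109 past it. Without pyruvate it was 384 bases wide (chr2:73418306-73418690), from 295 bases before to 89 past. The downstream edges of this peak lay near each other in the 2 lists, and most of the extra width with pyruvate lay upstream. The widths differed by 410 bases, with no measure of error. A further peak inside the gene, 434 to 1056 bases past the start, was almost identical: 622 bases with pyruvate and 618 without, with centres 4.0 bases apart. The third peak, 633 bases wide and 7146 bases inside the gene, had no counterpart. The nearest without-pyruvate peak was 6096 bases away, although the peak's width was at the 98.9 percentile of its own list.

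Chrnb1 had 1 peak in each list, 311 bases at chr11:69609321-69609632 with pyruvate and 335 bases at chr11:69609303-69609638 without. It ran from 187 bases before to 124 past the start with pyruvate and from 193 before to 142 past without. The same peak is also paired with a flank of Fgf11, a growth factor gene beside Chrnb1, so the files do not assign it to Chrnb1 alone. Fgf11 had a further peak of 224 bases within its own body in the with-pyruvate list only.

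Chrnd and Chrng are neighbours on chromosome 1, both on the plus strand. Chrnd had 1 peak in each list, 332 bases with pyruvate (chr1:89087045-89087377) and 292 without (chr1:89087056-89087348), with centres 9.0 bases apart. Chrng had 2 peaks with pyruvate, where 23.4% of named genes had at least 2, and 1 without. Its peak over the flank's end was 465 bases wide with pyruvate (chr1:89101955-89102420) and 308 without (chr1:89102085-89102393). As at Chrna1, the upstream edge differed more, at 431 bases before the start with pyruvate and 301 without. The other edge lay 34 bases past the start with pyruvate and 7 without. A narrower Chrng peak of 226 bases (chr1:89101114-89101340), 1272 to 1046 bases before the start, was in the with-pyruvate list only. Its width ranked at the 37.4 percentile of that list, and the nearest without-pyruvate peak was 745 bases away, at the Chrng start itself. Apart from it, no peak lay between the Chrnd and Chrng peaks in either list.

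Chrne, the adult subunit, was the only gene of the 8 with no row. In RefSeq's gene order it lies between Mink1 and Rnf167, the nearest genes with a symbol on each side that have rows. The listed regions of Mink1 and Rnf167 leave a gap of 36.9 kb (chr11:70427986-70464923), and where Chrne lies inside it is not shown by the files. In that gap each list held 1 peak, 215 bases at chr11:70435526-70435741 with pyruvate and 257 bases at chr11:70435522-70435779 without. The files pair it with a flank of an unnamed gene, ENSMUSG00000085952, and not with Chrne. Beside the gap, Rnf167 had a peak in both lists (299 and 301 bases), and Mink1 had peaks of 251 and 180 bases in the without-pyruvate list only. So a MyoD peak was present in the neighbourhood of Chrne in both lists, but none was paired with its body or flanks. The distance of the peak in the gap from the Chrne start was not measured, so it may lie close to the gene.

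**Figure D3:**
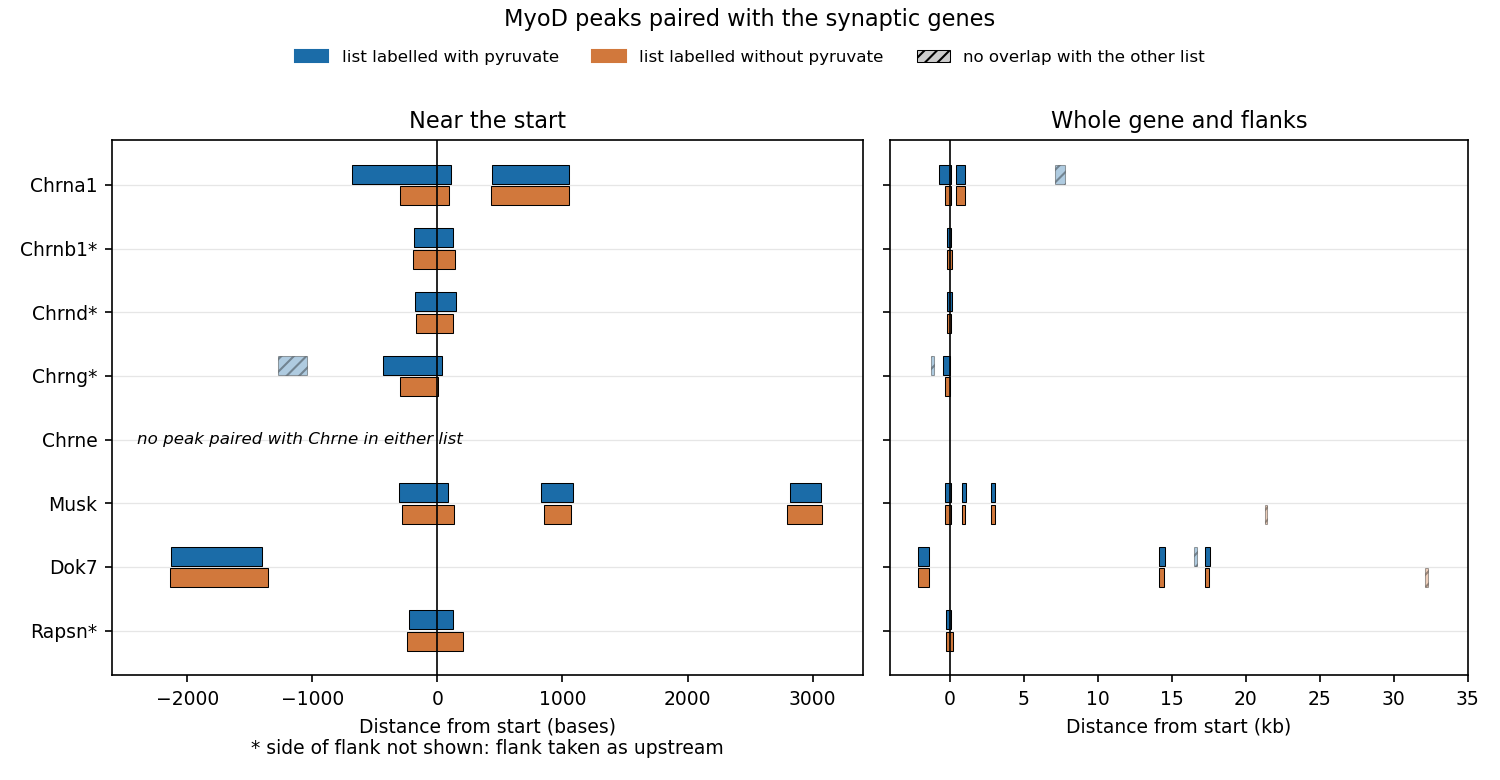
Every MyoD peak paired with the 8 genes, drawn by distance from the gene start in bases (left) and kilobases (right), with the with-pyruvate list above and the without-pyruvate list below in each row; hatched peaks have no overlap in the other list, and an asterisk marks genes whose flank is taken as upstream. Peaks of both lists sit over the start of 6 genes, the widest Dok7 peaks sit upstream of its start, and Chrne has none.

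Musk (chr4:58298834-58390290, plus strand, 91.5 kb) had 3 peaks with pyruvate and 4 without, where 10.8% of named genes had at least 4. Over the start lay a peak of 387 bases with pyruvate (chr4:58298531-58298918) and 408 without (chr4:58298555-58298963). Next came peaks of 255 and 216 bases, beginning 827 and 855 bases past the start, and peaks of 242 and 275 bases, beginning 2822 and 2798 bases past it. These 3 sites were in both lists and lay within 3073 bases of the start, in a gene of 91.5 kb. The fourth, 190 bases wide and 21273 bases inside (chr4:58320107-58320297), was in the without-pyruvate list only, at the 22.7 percentile of widths there.

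Dok7 (chr5:35399462-35430488, plus strand, 31.0 kb) carried 4 peaks in each list, 3 of them shared. Of named genes, 6.48% had at least 4 peaks with pyruvate and 10.8% had at least 4 without. The widest, 725 bases with pyruvate (chr5:35397336-35398061) and 781 without (chr5:35397324-35398105), did not touch the start. It lay 2126 to 1401 bases before it with pyruvate, and 2138 to 1357 without. Inside the gene, peaks of 401 and 300 bases began 14133 and 14171 bases past the start. Peaks of 323 and 300 bases began 17246 and 17250 bases past it. A peak of 220 bases between these sites was in the with-pyruvate list only (chr5:35415988-35416208), with the nearest without-pyruvate peak 504 bases away. A peak of 175 bases in the downstream flank was in the without-pyruvate list only (chr5:35431590-35431765).

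Rapsn had 1 peak in each list, over the flank's end, and it was wider without pyruvate. It measured 352 bases with pyruvate (chr2:90875550-90875902, from 227 bases before to 125 past) and 453 bases without (chr2:90875532-90875985, from 245 before to 208 past). At 101 bases this was the largest difference in favour of the without-pyruvate list among the shared peaks of these genes.

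In all, the 7 genes had 15 peaks in the with-pyruvate list and 14 in the without-pyruvate list, and 12 of each overlapped a peak of the other list by at least 1 base. That is 80.0% of the with-pyruvate peaks (95% exact Clopper-Pearson interval 51.9 to 95.7) and 85.7% of the without-pyruvate peaks (57.2 to 98.2). Over all peaks the shares were 71.8% and 44.2%. The intervals cover counting error only, and peaks of 1 gene are not independent. Of promoter-proximal peaks, 9 of 10 and 9 of 9 were shared at these genes, against 72.4% and 49.8% of all promoter-proximal peaks. Promoter-proximal peaks made up 66.7% and 64.3% of the peaks paired with these genes, against 22.2% and 21.2% of all peaks paired with any gene. Every peak of Chrnb1, Chrnd, Chrng and Rapsn counts as promoter-proximal by definition, because the files list only a flank for them. With located start sites alone, 5 of the 15 and 5 of the 14 peaks were promoter-proximal. The like share over all peaks is not given here. The proximal peaks spanned the start, or the flank end taken as the start, in 6 genes of each list, all but Dok7.

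Peak width is the only measure per peak in the files, and how far depth shaped it was not tested. Of the 12 shared pairs, 7 were wider with pyruvate and 5 without, with a median difference of 13.5 bases (with minus without) and a range of -101 to 410. Over all 8592 overlapping pairs the median difference was -22.0 bases, 38.2% were wider with pyruvate, and 24.8% differed by 100 bases or more. At these genes 4 of 12 differed by 100 bases or more: the Chrna1 start (410), Chrng (157), the Dok7 peak that begins 14133 bases inside (101) and Rapsn (-101). The centres of shared pairs lay a median of 10.75 bases apart, against 17.5 over all pairs, and 8 of 12 were within that value. The 3 unshared with-pyruvate peaks measured 633 bases (Chrna1), 226 (Chrng) and 220 (Dok7), against a median of 369.5 for the shared ones. The 2 unshared without-pyruvate peaks measured 190 (Musk) and 175 bases (Dok7), against a shared median of 321.5. Within each list, 12 of 15 and 11 of 14 peaks were wider than the list's median.

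**Figure D4:**
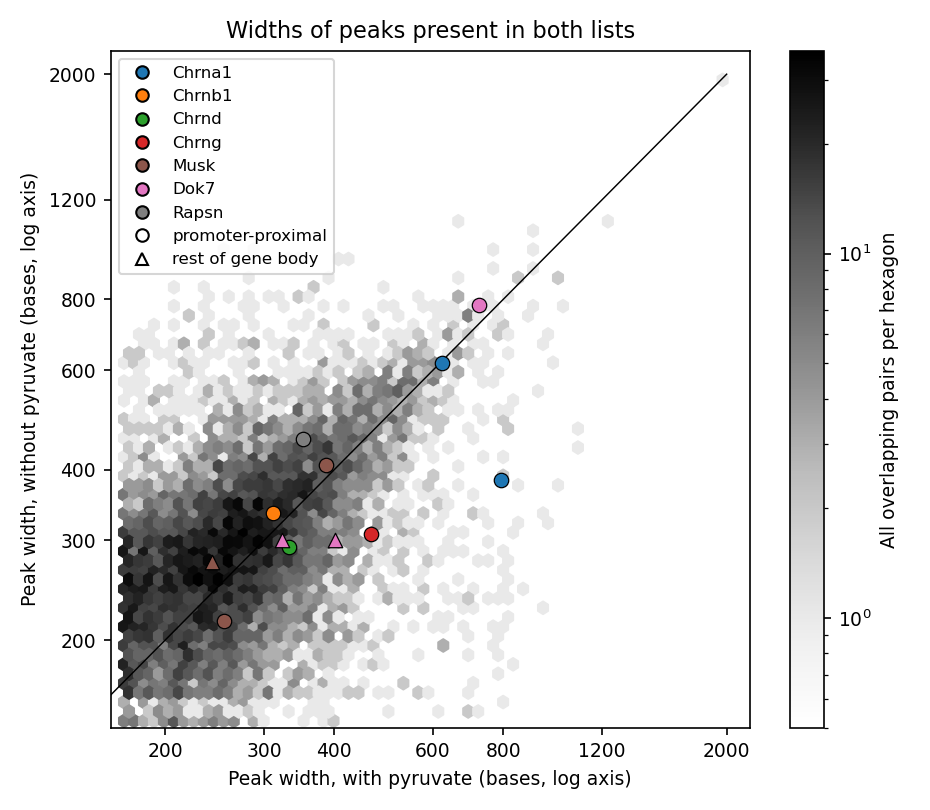
Width of each peak in the with-pyruvate list against the overlapping peak in the without-pyruvate list, in bases on log axes, for all 8592 overlapping pairs (grey hexagons) and the 12 pairs at the 7 genes (coloured points); the line marks equal width. The Chrna1 start peak (794 against 384 bases) and the Chrng peak (465 against 308) lie on one side of the line with a Dok7 pair (401 against 300), Rapsn (352 against 453) lies on the other, and the Chrna1 peak inside the gene (622 against 618) lies near it.

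Ordered by the widest promoter-proximal peak with pyruvate, the genes ran Chrna1 (794 bases), Dok7 (725), Chrng (465), Musk (387), Rapsn (352), Chrnd (332) and Chrnb1 (311). Without pyruvate the order was Dok7 (781), Chrna1 (618), Rapsn (453), Musk (408), Chrnb1 (335), Chrng (308) and Chrnd (292). Chrna1 ranked the third with pyruvate among 1785 genes with a promoter-proximal peak and Dok7 ranked 8, and without pyruvate Dok7 ranked 7 and Chrna1 30 among 2627. The ranks cover only peaks that the files pair with a gene. They leave out, for example, a with-pyruvate peak of 1025 bases that lies 1585 bases from the start of Lama5. Chrna1 and Dok7 led in both lists, but in opposite order. The order of the other 5 genes also differed between the lists, with Chrng moving most, and without replicates neighbours in these orders cannot be told apart. The median over all genes was 246 bases with pyruvate and 237 without, and all 7 genes were above it in both lists.

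By total peak bases, which also grow with gene length, Chrna1 (2049 and 1002 bases, with and without pyruvate), Dok7 (1669 and 1556), Musk (884 and 1089) and Chrng (691 and 308) led with pyruvate. Rapsn (352 and 453), Chrnd (332 and 292) and Chrnb1 (311 and 335) lay between the 47.7 and 66.2 percentiles of genes with a peak, whose medians were 304 and 306 bases. The 5 genes nearest to Chrna1 in log2 peak bases over the 2 lists were Fmnl3 (1980 and 1013 bases), Ppfia4 (2089 and 1083), Snx29 (1793 and 1126), Adamts7 (1720 and 1047) and Ephb2 (1672 and 1010). They reached these sums with 6 or 7 peaks with pyruvate and 3 or 5 without, whereas Chrna1 had 3 and 2. The likeness covers 2 libraries only.

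In a wider list of 60 neuromuscular genes, 36 had a row. A promoter-proximal peak was in both lists for 8, only with pyruvate for 1 and only without for 4. Over the 36 genes with a row the share for both lists was 22.2%, beside 18.7% of all named genes. Over all 60 it was 13.3%, beside 4.51% of RefSeq protein-coding genes, where genes without a row also count. Of the 6 signal genes, Erbb3, a neuregulin receptor, had one in both lists (338 and 425 bases). Agrn, which encodes agrin, had no row, and Lrp4, its receptor, had peaks inside the gene (at most 273 bases with pyruvate and 209 without). Of 15 genes of the synaptic cytoplasm and scaffold, Src, a tyrosine kinase (252 and 382 bases), and Prkar1a, a regulatory subunit of protein kinase A (387 and 247 bases at the widest), had one in both lists. Cdk5, a kinase (165 bases), and Lmna, nuclear lamin A/C (236 bases, 61 bases from its start), had one only in the without-pyruvate list.

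Of 7 genes of the dystrophin-type scaffold, all had a row, and the adaptor Dtna (304 and 260 bases at the widest) and Dag1, dystroglycan (421 and 160 bases), were promoter-proximal to a peak in both. Of 8 genes of the synaptic cleft, Lama2, a laminin chain, had one in both lists (281 and 326 bases), and Ache, acetylcholinesterase, only with pyruvate (210 bases, 1478 bases from its start). Lama5, another laminin chain, counted only without pyruvate (780 bases), yet the with-pyruvate list held an overlapping peak of 1025 bases, 1585 bases from the Lama5 start, that the file pairs with no gene. The pairing in the files thus misses some peaks that lie in a flank. Colq, the collagen tail of acetylcholinesterase, had peaks only inside the gene (442 and 446 bases at the widest). Neither of the 2 genes of the junctional folds, Scn4a and Ank3, had a promoter-proximal peak.

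Of 11 regulators of synaptic genes, Myog, the bHLH factor myogenin (529 and 351 bases), and Etv1, an Ets factor (224 and 202 bases), had one in both lists. Egr1, an early-response factor, had one only without pyruvate (305 bases). Gabpa and Gabpb1, which encode GABP, had no row, and Hdac4, a deacetylase linked to the response of muscle to denervation, had 7 and 8 peaks inside the gene. Of the 11 nicotinic subunit genes outside the muscle receptor, 0 were promoter-proximal to a peak in either list, and 9 had no row. Among RefSeq protein-coding genes such peaks were also uncommon (both lists 4.51%, with-pyruvate list alone 1.43%, without-pyruvate list alone 4.13%). Most of those genes likewise lacked a row, as the shares with one were 15.2%, 2.62% and 9.27% in the same order. With only 11 genes, these counts do not set the group apart from other genes. Chrna9 had peaks inside the gene in both lists (436 and 372 bases at the widest), and Chrna2 had 1 in the without-pyruvate list (306 bases). For the muscle subunits the count with a promoter-proximal peak in both lists was 4 of 5.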

How the data were processed

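MyoD ChIP-seq peaks were compared between 2 libraries, 1 per condition, grouped by sample title. Per the submitters' processing notes, the tools were MACS2 2.1.1, Bowtie2 2.1.0 and bcl2fastq 2.19, and the build was mm9. Not given in the sources used here are the gene annotation, the peak threshold and the role of the inputs. The deposited tables pair peaks with gene bodies and 2-kb flanks, per the file headers and the values. The deposited columns for fold enrichment hold only 0 or a dash (0 rows with another value), so width (end minus start) was used.

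Rows (13076 and 20902) were reduced to distinct peaks, pooled by symbol from 7262 gene IDs. Start sites came from listed bodies and strands (5837 IDs located). Of the 7235 genes, 5942 matched 1 of 21896 RefSeq protein-coding genes by symbol or synonym. Depth could not be computed. Up to 2 kb, only peaks the files pair with a gene were counted for it.

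The 8 genes, the wider list and the comparisons were chosen with earlier results of these data known. All 8 genes were named whatever their values, with wider-list genes that have a promoter-proximal peak (at most 16 by rule) and the 5 genes most like Chrna1. Genes of the wider list without such a peak (Agrn, Lrp4, Colq, Scn4a, Ank3, Gabpa, Gabpb1, Hdac4, Chrna9 and Chrna2), and the motifs, were picked with their values in view. Alternatives were other overlap rules, windows, widths and list lengths. The overlap code was tested on simulated data. Software was matplotlib 3.10.9, scipy 1.17.1, pandas 2.3.3 and numpy 2.4.6 on Python 3.11.15.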

Additional observations from a re-analysis of the deposited data

How the results depend on the processing

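Over the alternatives, 88 values were recomputed, of which 66 stayed near the reported value and 22 moved. With located start sites alone, the promoter-proximal count in both lists was 3 of the 8 genes. Promoter-proximal peaks were then 5 in each list, with 5 and 5 in other flanks, and the wider list gave 5 genes in both and 2 only without pyruvate, by construction of fewer located genes. Counting gene bodies alone left 3 of the 8 genes in both lists. This too was by construction, because the files list no body for Chrnb1, Chrnd, Chrng and Rapsn, so their peaks could not count. With a 1-kb window, 2 and 2 peaks fell in other flanks and 0 wider-list genes were only with pyruvate. With a 10-kb window 3 with-pyruvate peaks were left in the rest of the gene body, and 15 wider-list genes were in both lists and 2 only with pyruvate. With peaks of at least 250 bases, 3 with-pyruvate peaks lay in the rest of the body and 0 without-pyruvate peaks in other flanks, and wider-list genes were 5 in both, 2 only with and 2 only without pyruvate. When the longer list was limited to its widest 11907 peaks, 100% of its 11 peaks at these genes were shared. The share over all peaks under this limit is not given here, so that value has no like share beside it. Under the same limit 0 peaks of the longer list lay in other flanks, and 3 wider-list genes were only with pyruvate. The count of the 8 genes with a promoter-proximal peak in 1 list alone was 0 under each of the 5 settings tried for it. Depth limits are unknown because the files hold no counts. No paired analysis was possible because each condition has 1 library.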

Other observations

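Peaks outside a gene's own listed regions also lay within 50 kb of these genes. The share of all genes with a peak that near is not given here, so their presence is not a trait of these genes. At Chrnb1 the only such peak was the Fgf11 peak of the with-pyruvate list, and for Chrnd and Chrng they include each other's peaks. Upstream of Musk both lists held a peak of 306 bases with pyruvate (chr4:58281784-58282090) and 494 without (chr4:58281681-58282175), 14.7 kb from the Musk flank and paired with no named gene. Nearer to Musk, a peak of 190 bases (8.26 kb away) was in the with-pyruvate list only, and one of 239 bases (11.9 kb away) in the without-pyruvate list only. On the other side of Musk, a peak of 401 bases without pyruvate (36.0 kb away) and one of 231 bases with pyruvate (24.8 kb away) did not overlap.

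Near Rapsn, 25.3 kb beyond its flank, both lists shared a peak paired with Psmc3 and Slc39a13 (423 bases with pyruvate and 321 without). Upstream of Chrnd both lists shared a peak of 251 and 271 bases, 45.9 kb away, paired with no named gene. A shared peak paired with Wipf1 (249 and 293 bases) lay 36.2 kb beyond Chrna1. A peak of 243 bases paired with Rgs12, 15.8 kb upstream of the Dok7 flank, was in the without-pyruvate list only.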
